A study of Medicago truncatula with 15 samples.

Results

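The shoot apices of 2 *Mtsoc1* mutants of *Medicago truncatula* (Medicago) were compared, 3 libraries of each, 6 of the 15 libraries of the series. The *Mtsoc1a* single mutant carries a *Tnt1* retrotransposon insertion in *MtSOC1a* and flowers late, and its apices were taken from plants 15 days old. The *Mtsoc1* triple mutant was gene edited with CRISPR-Cas9 in *MtSOC1a*, *MtSOC1b* and *MtSOC1c*, does not flower, and its apices were taken at 83 days. Both are in the R108 background, as are 3 WT apex libraries from plants 15 days old, given here beside the mutants. All these plants were grown in long days after vernalization. Each library pooled 3 plants. For *Mtsoc1a* and WT the upper part of the primary stem was taken with the apex, whereas for the triple mutant the methods name primary shoot apices alone. The triple mutant libraries all come from 1 line, which the labels name Mtsoc1-4 and the methods Mtsoc1-2, with alleles numbered 4; these are taken here to be the same line. Cas9 was driven by a constitutive promoter, and the edited alleles carry deletions at guide targets and, in *MtSOC1b*, a large inversion. The methods describe the strand-specific mRNA libraries of the triple mutant apart from those of *Mtsoc1a* and WT. They do not state whether all were prepared together. Genotype, age and described harvest, and possibly library preparation, therefore differ together between the mutants and cannot be told apart.

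*SOC1* genes encode MADS-box transcription factors. In Arabidopsis the single *SOC1* gene integrates cues from photoperiod, cold, age and gibberellin, and passes them on to *LFY* and the *AP1*/*FUL* class of meristem identity genes. Medicago has an A-group gene, *MtSOC1a*, and a tandem pair of B-group genes, *MtSOC1b* and *MtSOC1c*, which lie side by side on chromosome 8. The contrast asks what distinguishes the apex of a plant that lacks *MtSOC1a* and still flowers from the apex of a plant edited in all these genes.

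The triple mutant was made with 7 guide RNAs against coding exons, each 20 bases long. The 7 guides are shown because they define which parts of the genes were edited. They are written 5′ to 3′, and in g1 and g6 the capitals mark the positions at which these 2 guides differ.
g1 (*MtSOC1a*, exon 5): aattgaCcaActaaaAgaaa
g2 (*MtSOC1a*, exon 7): gcagccgcagccaacaacaa
g3 (*MtSOC1b*, exon 3, and *MtSOC1c*): accttcttgagacttcaaaa
g4 (*MtSOC1b*, exon 7): ttcaacacaggaatcaacaa
g5 (*MtSOC1c*, exon 4): aatcttttgtagttcatcaa
g6 (*MtSOC1c*, exon 5): aattgaGcaGctaaaGgaaa
g7 (*MtSOC1c*, exon 7): gtcctccagaaacaagaaca
Counted from the 5′ end, g1 and g6 differ at 3 positions (C7G, A10G and A16G, with the base of g1 first). The guides address exon 5 of the A-group gene and exon 5 of *MtSOC1c* at near-identical letters.

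RNA from all 3 edited genes was higher in the triple mutant than in *Mtsoc1a*. Levels are CPM, counts relative to the library size, scaled by TMM, summed over the transcripts of a locus. *MtSOC1a* (Medtr7g075870), the gene disrupted by the insertion, was at 1.38, 0.696 and 0.911 CPM in the *Mtsoc1a* libraries, 27.9, 32.0 and 30.5 in the triple mutant, with 18.3, 25.3 and 18.4 in WT (log2 fold change 4.91, SE 0.23, adjusted p = 1.68e-07; edgeR's quasi-likelihood test with Benjamini-Hochberg adjustment, here and throughout). The low level in every *Mtsoc1a* library checks that label. *MtSOC1c* (Medtr8g033220) was at 3.31, 3.22 and 3.39 CPM in *Mtsoc1a*, 38.3, 35.7 and 34.7 in the triple mutant, with 8.47, 4.82 and 7.10 in WT (log2 fold change 3.45, SE 0.19, adjusted p = 6.66e-07). It was thus highest in the triple mutant, above every WT library as well. *MtSOC1b* (Medtr8g033250) was the least abundant of the 3, at 0.410, 0.569 and 0.943 CPM in *Mtsoc1a*, 2.70, 2.43 and 2.68 in the triple mutant, with 4.42, 2.02 and 4.54 in WT (log2 fold change 2.02, SE 0.41, adjusted p = 0.00295). For each of the 3 genes the *Mtsoc1a* and triple mutant libraries did not overlap. Since the guides target coding exons, and counts say nothing of edited bases, no RNA level here tests the triple mutant label. Salmon divides reads between close paralogs, which makes the split between *MtSOC1b* and *MtSOC1c* uncertain.

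The 3 *Mtsoc1a* apex libraries held 30574854 to 33419788 estimated counts and the triple mutant libraries 13224488 to 15891830, so low levels were less precise in the triple mutant. The tissue was checked with 500 loci higher in WT leaf than in WT apex and 500 higher in WT apex. The apex-higher loci summed to 51817 to 54321 CPM of the library total in *Mtsoc1a* apices and 53313 to 58152 in the triple mutant, against 2307 to 2492 in WT leaves. The leaf-higher loci summed to 23404 to 26262 CPM in *Mtsoc1a* and 27783 to 31696 in the triple mutant, above every *Mtsoc1a* library, against 235894 to 239404 in WT leaves. *HDL* (Medtr5g021930), a *WUSCHEL*-related gene of the shoot meristem, held 0, 3 and 6 counts in *Mtsoc1a* apices, 0 in every triple mutant library and 4, 14 and 7 in WT, too few to test. In bulk samples, fewer cells of a type and less RNA per cell cannot be told apart.

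Of 22555 loci tested, 838 were higher in the triple mutant (3.72%) and 1985 were lower (8.8%), 2823 in all (12.5%), at an adjusted p of 0.05 or less and at least a 2-fold change. The lower loci also changed more: 979 of them fell at least 4-fold and 321 at least 16-fold, with a median log2 fold change of -1.98, against 345 and 92 of the higher loci and a median of 1.69. The median over all loci tested was -0.01. At the adjusted p alone the directions were nearly even, with 3442 loci higher and 3611 lower. All 3 triple mutant libraries lay above all 3 *Mtsoc1a* libraries at 5498 loci (24.4%) and below them at 5653 (25.1%).

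**Figure D1:**
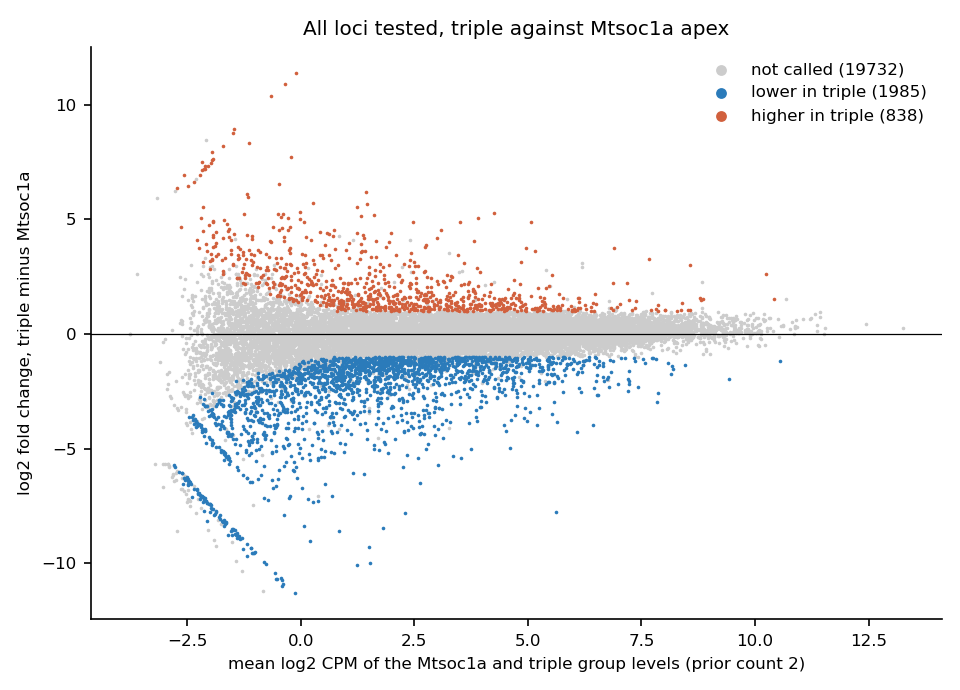
Log2 fold change (triple mutant minus *Mtsoc1a*) of the 22555 loci tested, against the mean of the 2 group levels in log2 CPM (prior count 2). Orange points are the 838 loci called higher and blue points the 1985 called lower; the diagonal bands at the left are loci with 0 or few counts in one group, whose fitted fold change is not a bound.

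At most of these loci WT lay nearer to *Mtsoc1a*, a nearness that was not tested. Among the 838 higher loci the WT level was nearer to *Mtsoc1a* than to the triple mutant at 678 (80.9%), and among the 1985 lower loci at 1714 (86.3%). WT lay nearer to the triple mutant at the other 160 and 271 loci. Its level was between those of the mutants at 696 of the higher and 1584 of the lower loci. WT and *Mtsoc1a* plants were of the same age, and the count does not separate age from genotype. A smaller class was detected in the libraries of only a single mutant. Of the lower loci 103 (5.19%) had 0 counts in all 3 triple mutant libraries, and 78 of these had counts in every WT library. Of the higher loci 21 (2.51%) had 0 counts in all 3 *Mtsoc1a* libraries, and 11 of these had counts in every WT library.

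*MtFTa2*, *MtFTb1*, the *MtFUL* genes and *MtAP1b* were higher in the triple mutant, whereas *MtAP3b* and *MtTFL1c* were lower. Of 21 flowering genes on the RT-qPCR list, 19 were tested. Of these 9 rose (47.4%, against 3.72% of all loci) and 2 fell (10.5%, against 8.8%, so near the background), and the median log2 fold change was 2.02 against -0.01 over all loci. The 9 include *MtSOC1a*, *MtSOC1b* and *MtSOC1c*, the genes mutated in these plants, so the share is not that of other flowering genes alone. *MtFULb* (Medtr4g109830), a homolog of *FRUITFULL*, had the smallest p of them after *MtSOC1a* and *MtSOC1c*. It was at 1.96, 1.36 and 1.95 CPM in *Mtsoc1a*, 23.4, 23.0 and 26.9 in the triple mutant, with 4.92, 1.99 and 3.72 in WT (log2 fold change 3.79, SE 0.29, adjusted p = 8.93e-06). No library of either other group reached the lowest triple mutant library. *MtFULa* (Medtr2g461760) was lower in level, at 0.293, 0.822 and 0.786 CPM in *Mtsoc1a* and 3.24, 3.53 and 2.82 in the triple mutant (log2 fold change 2.33, SE 0.65, adjusted p = 0.0169). Its call ended without *Mtsoc1a* replicate 1 or triple mutant replicate 2 (log2 fold change 1.98 to 2.25, adjusted p of 0.0508 to 0.0517). *MtFULc* (Medtr7g016630), known for secondary inflorescence identity, had 0 counts in all *Mtsoc1a* libraries, 2, 7 and 8 in the triple mutant, with 47, 21 and 51 in WT (adjusted p = 0.00424). Its observed level in the triple mutant was 13-fold above a floor of 3 counts over the *Mtsoc1a* group. The triple mutant libraries were still below the lowest WT library in CPM (0.135, 0.549 and 0.537 against 1.23, 0.614 and 1.61).

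*MtAP1b* (Medtr5g046790) also had 0 counts in every *Mtsoc1a* library and 36, 7 and 6 in the triple mutant, an observed level 37.5-fold above the same floor (adjusted p = 0.00188). Triple mutant replicate 1 held 36 of these 49 counts. With the 6 mutant libraries compared alone, or with libraries thinned to the smallest, *MtAP1b* did not pass the filter on low counts and was not tested. In CPM the triple mutant was at 2.43, 0.549 and 0.402, overlapping WT at 0.732, 0.380 and 0.915. *MtAP1* (Medtr8g066260), the floral meristem identity gene of Medicago, was at the floor in both mutants, with 0 counts in *Mtsoc1a* and 1, 0 and 0 in the triple mutant, while WT had 133, 17 and 140. No fold is given between the mutants. *MtLFY* (Medtr3g098560), which acts with *AP1* in floral identity, was at 4.22, 3.22 and 3.43 CPM in *Mtsoc1a* and 1.89, 3.06 and 1.41 in the triple mutant (log2 fold change -0.78, SE 0.30, adjusted p = 0.0661). Its libraries did not overlap, but it missed the adjusted p, which it met only without triple mutant replicate 2 (log2 fold change -1.14, adjusted p = 0.0233). *MtAP3b* (Medtr5g021270), a homolog of the petal and stamen identity gene *AP3*, fell from 6.32, 6.99 and 6.35 CPM in *Mtsoc1a* to 2.02, 3.06 and 1.61 (log2 fold change -1.56, SE 0.27, adjusted p = 0.00125). The *Mtsoc1a* libraries were the high ones here, while WT was at 2.93, 2.28 and 3.47. Another *AP3* homolog, *AP3a* (Medtr3g113030), was not called (log2 fold change 1.02, adjusted p = 0.239). At low counts, its triple mutant libraries all lay above those of *Mtsoc1a* in CPM.

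Among the *FT* family, whose members encode mobile florigens and related proteins, *MtFTb1* (Medtr7g006630) held 0, 2 and 3 counts in *Mtsoc1a* against 28, 12 and 9 in the triple mutant, or 0, 0.0632 and 0.0943 against 1.89, 0.941 and 0.604 CPM (log2 fold change 4.35, SE 0.91, adjusted p = 0.0035). *MtFTa2* (Medtr7g085020) was at 0.146, 0.664 and 0.157 CPM in *Mtsoc1a* and 2.43, 1.41 and 1.61 in the triple mutant (log2 fold change 2.49, SE 0.82, adjusted p = 0.0362). Neither gene's libraries overlapped, but both were near the limit of detection, and the call of *MtFTa2* ended without *Mtsoc1a* replicate 1 or 3 or triple mutant replicate 1, 2 or 3 (log2 fold change 2.14 to 2.63, adjusted p of 0.0676 to 0.125). *MtFTa1* (Medtr7g084970), the main florigen gene of Medicago, was spread widely, at 1.29, 0.632 and 2.64 CPM in *Mtsoc1a* and 1.01, 0.235 and 0.604 in the triple mutant (log2 fold change -1.28, SE 0.71, adjusted p = 0.198), and the groups overlapped. *MtFTb2* (Medtr7g006690) held 36, 0 and 13 counts in *Mtsoc1a* against 14, 9 and 5 in the triple mutant (adjusted p = 0.784), and *MtFTc* had none in either. *MtTFL1c* (Medtr1g060190), of the *TERMINAL FLOWER* family that opposes floral identity in Arabidopsis, was at 7.50, 11.5 and 17.6 CPM in *Mtsoc1a* and 5.26, 4.86 and 2.62 in the triple mutant (log2 fold change -1.52, SE 0.47, adjusted p = 0.0366). Its call ended without *Mtsoc1a* replicate 2 or 3 or triple mutant replicate 1, 2 or 3 (log2 fold change -1.71 to -1.17, adjusted p of 0.069 to 0.128). *MtFDa*, *MtSVPc* and *MtBFT* did not pass the test (log2 fold changes 0.03, 0.18 and 1.16, adjusted p = 0.967, 0.358 and 0.496). *MtSWN*, a Polycomb gene, met the adjusted p (0.0447) at a log2 fold change of -0.30, short of the fold threshold.

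**Figure D2:**
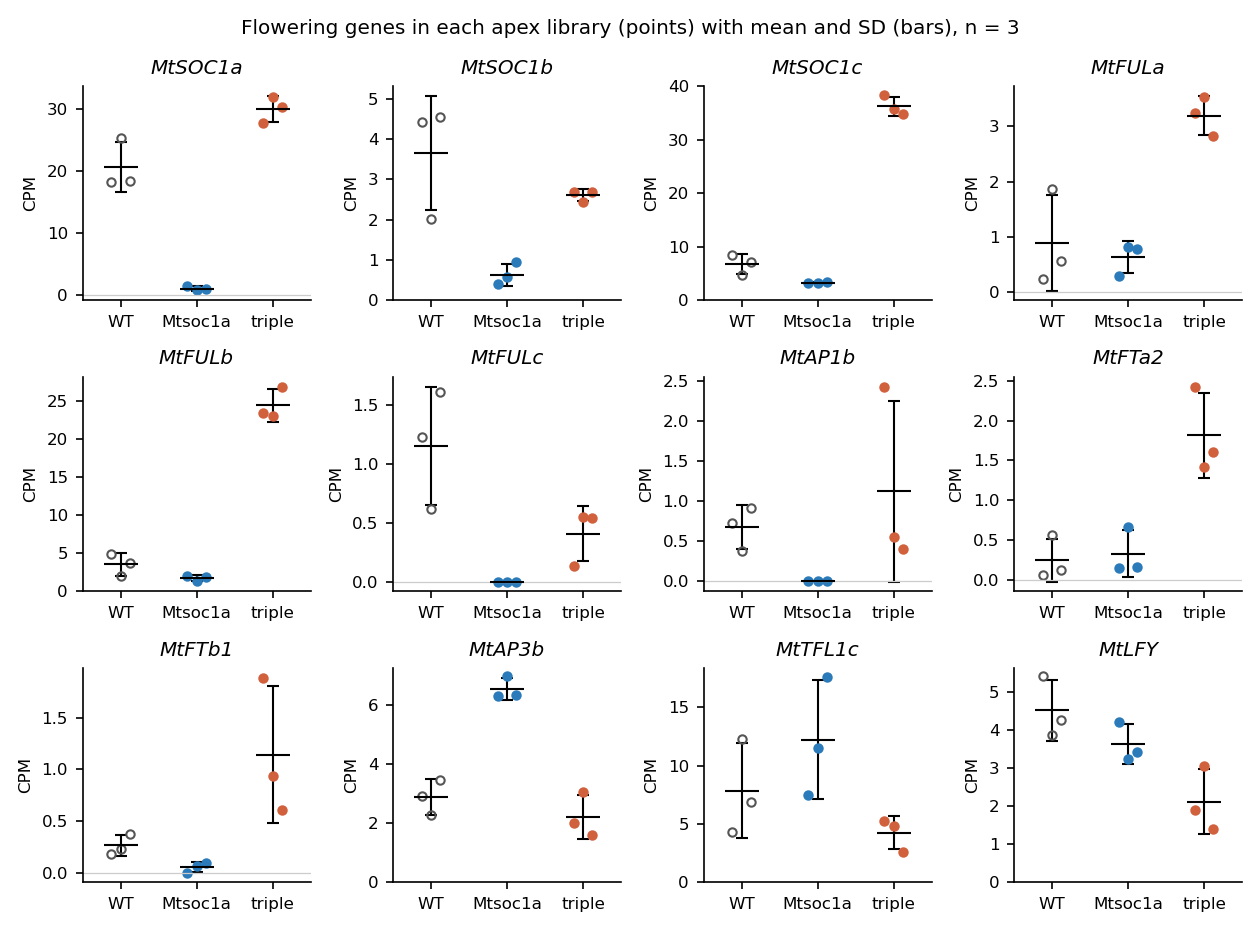
CPM of 12 flowering genes in each apex library (points; open, WT; blue, *Mtsoc1a*; orange, triple mutant), with the mean and SD of 3 libraries (bars). The 3 *MtSOC1* genes, *MtFULb* and *MtFULa* show triple mutant points clear of the *Mtsoc1a* points, *MtFULc* and *MtAP1b* are at 0 in *Mtsoc1a*, and *MtAP3b*, *MtTFL1c* and *MtLFY* have their lowest points in the triple mutant.

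Of the 93 candidate flowering genes that the study tabulated, 83 were tested, 15 were higher in the triple mutant (18.1%, against 3.72% of all loci) and 17 were lower (20.5%, against 8.8%), at a median log2 fold change of -0.15. The directions differed by category. Of 27 tested loci of the MADS-box category, 12 were higher (44.4%) and 3 lower (11.1%), with a median of 1.02. The 12 include the mutated genes *MtSOC1a*, *MtSOC1b* and *MtSOC1c*. Those genes, *MtFULb*, *MtFULc* and *MtAP1b* are also among the RT-qPCR genes above, so the 2 lists are not independent. Beside those above, *AGL17* (Medtr1g101970), whose Arabidopsis namesake promotes flowering, was at 0.673, 1.61 and 1.60 CPM in *Mtsoc1a* and 9.92, 6.67 and 6.17 in the triple mutant (log2 fold change 2.55, SE 0.40, adjusted p = 6.07e-04). The *SVP*/*AGL24* locus Medtr4g093970 was at 5.01 ± 1.15 CPM (SD, n = 3) in *Mtsoc1a* and 13 ± 0.747 (SD, n = 3) in the triple mutant (log2 fold change 1.38, SE 0.25, adjusted p = 0.00139). At both loci the *Mtsoc1a* and triple mutant libraries did not overlap. WT was at 1.39, 1.75 and 3.12 CPM at *AGL17*, below the triple mutant. At the *SVP*/*AGL24* locus WT was at 7.58, 14.6 and 9.21, overlapping the triple mutant at 12.8, 13.9 and 12.5. *SEP4* (Medtr4g109810), a cofactor of the floral organ MADS proteins, held 21, 17 and 4 counts in *Mtsoc1a* against 29, 26 and 61 in the triple mutant (log2 fold change 2.65, SE 0.60, adjusted p = 0.00562), and *CALd* (Medtr6g464720) 5, 6 and 18 and 30, 12 and 30 (log2 fold change 2.46, SE 0.64, adjusted p = 0.0117). The other *SEP4* locus, Medtr5g046830, was not called (log2 fold change -1.16, adjusted p = 0.5). Nor were *SEP3a*, *SEP3b* and *SEP1/2a* (log2 fold changes 0.81, -1.15 and 0.05). *AGL65* (Medtr4g108720) and *AGL80* (Medtr4g032620) rose by log2 fold changes of 1.68 and 1.30. These calls were less stable: that of *CALd* ended without triple mutant replicate 3 (log2 fold change 2.30, adjusted p = 0.054), that of *AGL65* without *Mtsoc1a* replicate 1 or 3 or triple mutant replicate 3 (log2 fold change 1.29 to 1.45, adjusted p of 0.0576 to 0.122), and that of *AGL80* without *Mtsoc1a* replicate 1, 2 or 3 or triple mutant replicate 1 or 2 (log2 fold change 1.10 to 1.36, adjusted p of 0.0752 to 0.137).

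In the other direction, *AGL6* (Medtr7g075850) held 16, 38 and 26 counts in *Mtsoc1a* against 0, 0 and 2 in the triple mutant (adjusted p = 0.00986). Its 2 counts in the triple mutant give a ratio of 17.4 in favour of *Mtsoc1a*, with a 95% exact counting interval of 4.66 to 146. *AGL6* has roles in floral meristems in Arabidopsis and grasses, and WT held 8, 15 and 8 counts. The *WUSCHEL*-related locus Medtr1g019130 fell by 1.05 (log2, SE 0.19, adjusted p = 0.00149), to just under the fold threshold without *Mtsoc1a* replicate 3 or triple mutant replicate 1 or 2 (log2 fold change -1.0 to -0.84, adjusted p of 0.0058 to 0.00924). Other floral organ genes were close to absent from both mutants: *PI*, *STK*, *AGa*, *SHP* and *SEP1/2b* had 0 to 12 counts per mutant library and were not tested. Where counts are this low, a difference was not detectable at this depth.

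*SPL* genes, many of them targets of miR156 through which plant age promotes flowering in Arabidopsis, fell or rose by member. Of 10 tested in the age category, 3 fell (30% against 8.8% of all loci) and 1 rose, at a median log2 fold change of 0.01. *SPL9* (Medtr7g444860) fell from 28, 26.7 and 21.3 CPM in *Mtsoc1a* to 12.5, 10.5 and 10.9 (log2 fold change -1.17, SE 0.14, adjusted p = 1.12e-04) and *SPL3* (Medtr4g088555) from 7.52, 8.13 and 5.37 to 1.96, 3.14 and 2.08 (log2 fold change -1.56, SE 0.25, adjusted p = 6.68e-04). WT was close to *Mtsoc1a* for both, at 23.7, 28.6 and 25.0 and 6.28, 5.94 and 5.42 CPM. *SPL4* (Medtr2g014200) fell by 1.11 (log2, adjusted p = 0.00138), and was under the fold threshold without *Mtsoc1a* replicate 1 or triple mutant replicate 3 (log2 fold change -0.97 to -0.90, adjusted p of 0.00425 to 0.0103). *SPL15b* (Medtr1g053715) was at 1.29, 0.443 and 0.974 CPM in *Mtsoc1a* and 2.77, 3.69 and 2.41 in the triple mutant (log2 fold change 1.70, SE 0.44, adjusted p = 0.0115), and lost its call without triple mutant replicate 2 (log2 fold change 1.51, adjusted p = 0.0529). *SPL2*, *SPL15a*, *SPL7*, *SPL13a*, *SPL13c* and *SPL5b* were not called, with log2 fold changes from -0.15 to 0.72.

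Among gibberellin genes, 7 of 17 tested fell (41.2%, against 8.8% of all loci) and 1 rose (5.88%, against 3.72%), at a median log2 fold change of -0.85. Both *GA20OX* genes that passed, which encode a late step of gibberellin synthesis, fell. Medtr1g102070 went from 14.3, 16.8 and 19.0 CPM in *Mtsoc1a* to 4.39, 4.79 and 2.62 (log2 fold change -2.09, SE 0.29, adjusted p = 4.38e-04), and Medtr6g464620 from 37, 65 and 122 counts to 4, 0 and 6 (log2 fold change -3.30, SE 0.71, adjusted p = 0.00429). A *GA2OX* gene (Medtr2g102570), of the family that inactivates gibberellin, fell as well, from 8.96, 7.75 and 11.3 CPM to 3.44, 3.77 and 2.88 (log2 fold change -1.47, SE 0.24, adjusted p = 8.72e-04). The other *GA2OX* loci did not fall: Medtr4g074130 was not called (log2 fold change 0.57, adjusted p = 0.17), and Medtr5g005570 was not tested, with 0, 2 and 0 counts in *Mtsoc1a* and 2, 20 and 2 in the triple mutant. The locus that rose was a *GID1* gibberellin receptor gene (Medtr8g035520), at 0.117, 0.316 and 0.660 CPM in *Mtsoc1a*, 7.76, 7.92 and 5.37 in the triple mutant, with 1.31, 0.643 and 0.978 in WT (log2 fold change 4.26, SE 0.50, adjusted p = 1.07e-04). WT thus stayed below the triple mutant in each library. The other *GID1* loci, Medtr1g089310, Medtr6g464120 and Medtr7g093950, were not called (log2 fold changes -0.09, 0.83 and -0.85). The 4 remaining lower loci carry the name *GRP* in that category. The most abundant, Medtr4g106860, fell from 74.6, 109 and 112 CPM to 23.4, 20.6 and 25.9 (log2 fold change -2.08, SE 0.27, adjusted p = 8.31e-04). Medtr3g113890 held 124, 59 and 62 counts in *Mtsoc1a* against 1 in the triple mutant group, a ratio of 107 with a 95% exact counting interval of 19.0 to 4228. Medtr8g075920 and Medtr6g007897 fell by 3.87 and 1.28 on the log2 scale. The *GRP* loci Medtr1g018640, Medtr3g037750, Medtr6g012360 and Medtr7g010580 were not called (log2 fold changes -0.20, 1.22, 0.82 and 0.05).

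In the carbohydrate category, 2 of 8 tested loci were lower (25%, against 8.8% of all loci). *TPS1* (Medtr2g073260), which makes trehalose 6-phosphate, a sugar signal needed for flowering in Arabidopsis, fell from 22.2, 27.4 and 31.4 CPM to 10.5, 10.7 and 8.45 (log2 fold change -1.45, SE 0.16, adjusted p = 5.91e-05). A further *TPS* gene (Medtr8g105740) fell by 1.05 (adjusted p = 0.0188) and lost its call without *Mtsoc1a* replicate 2 or 3 or triple mutant replicate 1 or 2 (log2 fold change -1.06 to -0.87, adjusted p of 0.0473 to 0.0615). In the photoperiod category 2 of 13 fell (15.4%, against 8.8% of all loci). *ELF4* (Medtr8g020200), part of the evening complex of the clock, fell by 1.68 (SE 0.32, adjusted p = 0.00217), and the clock gene *TOC* (Medtr4g108880) by 1.02 (SE 0.15, adjusted p = 5.13e-04). The other *ELF4* loci, Medtr2g041310 and Medtr3g070490, were not called (log2 fold changes -0.36 and 0.06). *TOC* stayed just under the fold threshold without *Mtsoc1a* replicate 1 or 3 or triple mutant replicate 1 or 3 (log2 fold change -0.98 to -0.94, adjusted p of 0.00176 to 0.00471). *LHY* (Medtr7g118330), the morning clock gene, met the adjusted p at a log2 fold change of 0.67, short of the fold threshold. In the vernalization category 1 of 8 rose (12.5%, against 3.72% of all loci), the *FRIGIDA*-like locus Medtr2g091015 (log2 fold change 1.54, SE 0.31, adjusted p = 0.00304). The other *FRIGIDA*-like loci tested were not called, with log2 fold changes from -1.60 to 0.26.

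**Figure D3:**
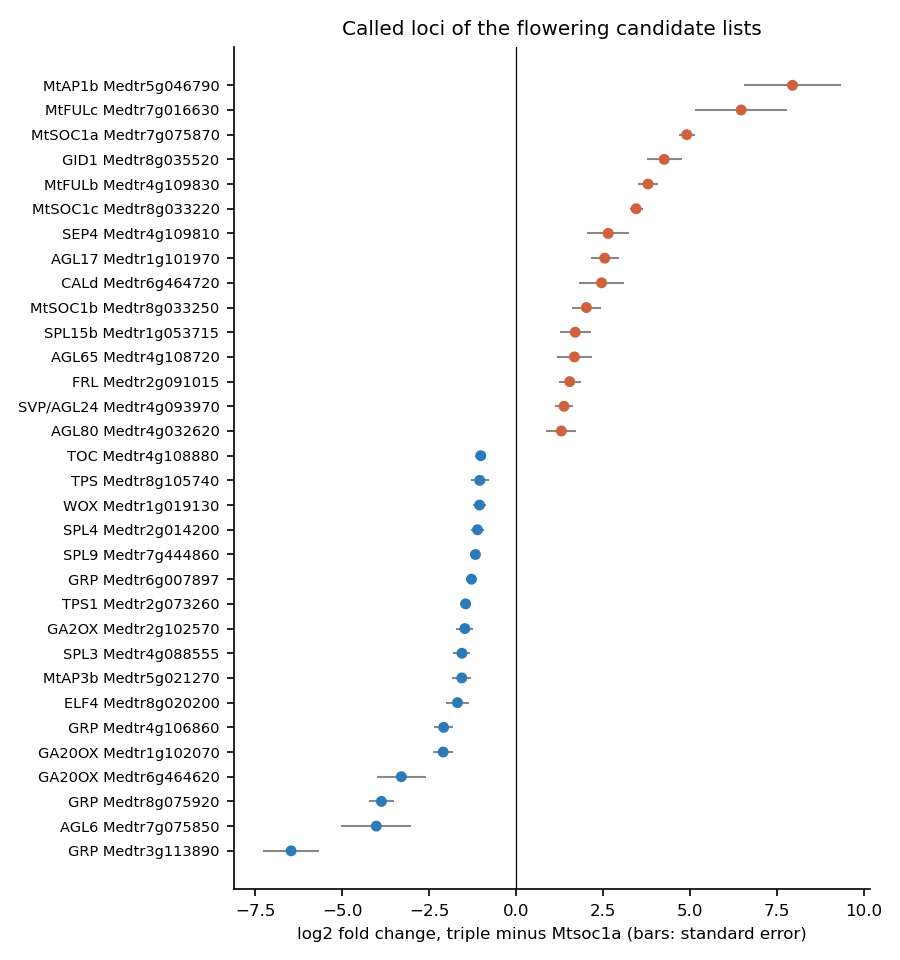
Log2 fold change (triple mutant minus *Mtsoc1a*) with its standard error for the 32 called loci of the candidate flowering lists. The 15 higher loci (orange) are led by *MtAP1b* and *MtFULc*, whose *Mtsoc1a* counts were 0, and by *MtSOC1a*; the 17 lower loci (blue) include 4 *GRP*, 2 *GA20OX* and 3 *SPL* genes.

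Medicago homologs of genes that SOC1 binds in Arabidopsis leaned lower. Of 214 loci tested, 47 fell (22.0%, against 8.8% of all loci) and 5 rose (2.34%, against 3.72%), at a median log2 fold change of -0.22. The count of lower loci was 31 without triple mutant replicate 2 and 31 without replicate 3, and that of higher loci 3 without *Mtsoc1a* replicate 2 and 2 without *Mtsoc1a* replicate 3. The homologs belong to 29 Arabidopsis genes and many share a family, so they are not independent. Loci matched to AT1G28010, an ABC transporter gene, fell at 10 of 18, and loci matched to AT4G08850, a receptor-like kinase gene with the most homologs, fell at 19 of 77 and rose at 2. Both homologs of AT1G68840, a *TEMPRANILLO* repressor of flowering in Arabidopsis, fell. Medtr1g093600 went from 80.8, 104 and 74.7 CPM in *Mtsoc1a* to 13.7, 4.24 and 11.0 in the triple mutant (log2 fold change -3.15, SE 0.47, adjusted p = 0.00299), and Medtr5g053920 from 27.8, 35.6 and 28.5 to 8.37, 3.77 and 5.70 (log2 fold change -2.35, SE 0.30, adjusted p = 4.34e-04). These 2 loci were singled out after their values were seen. The most abundant of the lower homologs in *Mtsoc1a*, Medtr5g066730 (AT2G30600), fell from 483, 766 and 704 CPM to 101, 64.5 and 82.1 (log2 fold change -2.98, SE 0.30, adjusted p = 3.55e-04). Medtr5g024450 and Medtr8g465340 (both AT4G08850) and Medtr6g037340 (AT5G16010) fell by 2.49, 1.87 and 1.66 on the log2 scale.

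**Figure D4:**
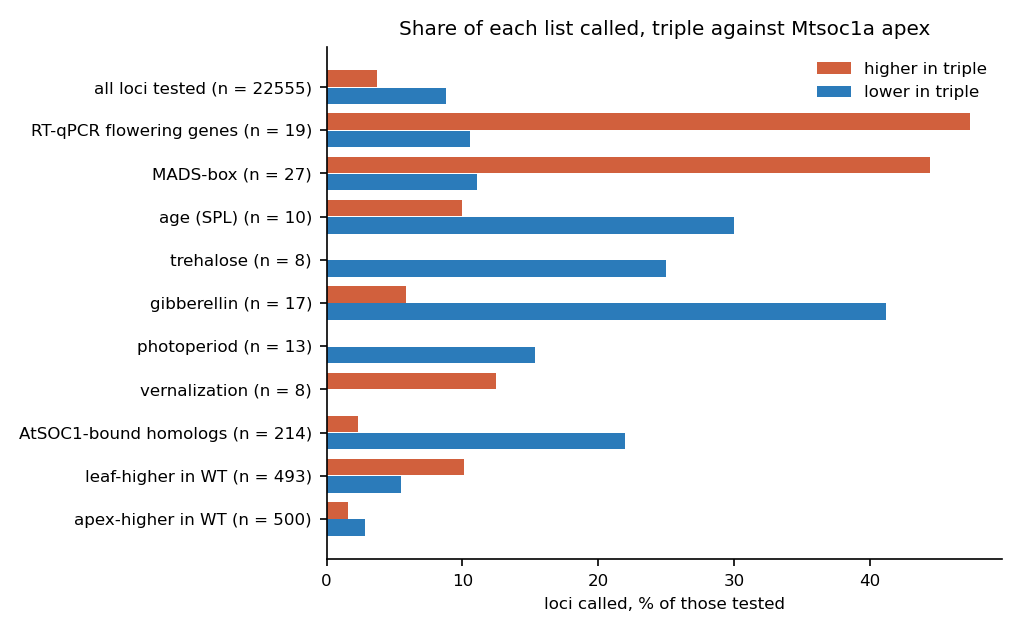
Percent of the tested loci of each list called higher (orange) and lower (blue) in the triple mutant than in *Mtsoc1a*; n is the number tested. Against 3.72% and 8.8% of all loci, the MADS-box list has 12 of 27 higher, the gibberellin list 7 of 17 lower and the homologs of AtSOC1-bound genes 47 of 214 lower. The mutated *MtSOC1* genes are on the RT-qPCR and MADS-box lists and are counted as higher in both.

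The loci with the smallest p in the higher direction included *MtSOC1a*, *MtSOC1c* and loci for which no annotation was used here. Medtr2g081590 was the most abundant, at 141, 133 and 129 CPM in *Mtsoc1a*, 991, 1123 and 1077 in the triple mutant, with 196, 216 and 200.2 in WT (log2 fold change 2.99, SE 0.09, adjusted p = 2.17e-09). Medtr7g069980 had the smallest p of all, at 2.81, 2.43 and 3.99 CPM in *Mtsoc1a* and 116, 112 and 126 in the triple mutant (log2 fold change 5.26, SE 0.16, adjusted p = 2.17e-09). WT lay between the mutants for both loci. Medtr3g114530 and Medtr2g094880 rose from 2.84, 3.48 and 3.93 and 0.322, 0.537 and 0.314 CPM to 64.2, 45.0 and 63.2 and 15.0, 11.3 and 15.2. Medtr5g045370, Medtr4g077070, Medtr1g026910, Medtr2g036780 and Medtr4g101820 rose by log2 fold changes of 1.24 to 2.70. Medtr1g078420 held 2, 1 and 0 counts in *Mtsoc1a* against 110, 111 and 91 in the triple mutant, a ratio of 239 with a 95% exact counting interval of 81.0 to 1165.

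In the lower direction, Medtr1g066710 fell from 20.6, 25.5 and 23.2 CPM in *Mtsoc1a* to 2.43, 2.59 and 2.55 (log2 fold change -3.19, SE 0.15, adjusted p = 1.68e-07) and Medtr7g070050, listed under abscisic acid signalling, from 19.1, 22.7 and 20.2 to 1.08, 1.33 and 0.805 (log2 fold change -4.28, SE 0.21, adjusted p = 2.30e-07). Medtr2g437530 was the most abundant of these at 106, 128 and 96.6 CPM in *Mtsoc1a* and 11.5, 6.35 and 7.78 in the triple mutant. Medtr1g105860 was close to absent, with 363, 323 and 472 counts in *Mtsoc1a* and 1 in each triple mutant library, a ratio of 168 (95% exact counting interval 57.3 to 816). Medtr4g087080, Medtr5g018050, Medtr2g097463, Medtr1g492640, Medtr3g040410, Medtr2g084020, Medtr5g030500 and Medtr0133s0020 fell by 2.09 to 4.34 on the log2 scale. In all 12 of these loci WT was well above the triple mutant, for instance 23.6, 25.9 and 19.0 CPM against 1.15, 1.49 and 1.41 at Medtr4g087080.

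The loci of largest fold fell into classes by their WT level. Medtr0052s0060 had 0 counts in every *Mtsoc1a* and WT library and 264, 118 and 147 in the triple mutant, at least 405-fold higher than *Mtsoc1a*. Medtr4g032935 was instead missing from *Mtsoc1a* alone among the apex groups: it had 0 counts in all 3 of those libraries, 35, 97 and 129 in the triple mutant, with 162, 257 and 242 in WT, at least 200-fold higher in the triple mutant. Medtr4g451275, at least 286-fold higher, had 21, 0 and 46 counts in WT. Medtr0002s0250, Medtr4g064360, Medtr2g006030 and Medtr4g051130 rose by log2 fold changes of 5.66 to 6.53 from low counts in both other groups. The lower loci split likewise. Medtr7g045650 (at least 164-fold lower), Medtr5g056815 (at least 111-fold), Medtr1g069945 (at least 104-fold) and Medtr1g031640 (at least 89.9-fold) had 0 counts in every triple mutant library and were present in WT, as Medtr7g045650 with 257, 210 and 206 WT counts. Medtr2g034480, Medtr4g013770, Medtr5g048550 and Medtr4g094492 had few counts in WT and were high in *Mtsoc1a*. Medtr5g048550 had 106, 174 and 447 counts in *Mtsoc1a* against 4, 0 and 2 in WT and none in the triple mutant, and Medtr4g013770 165, 206 and 488 against 5, 7 and 0 and none. *Mtsoc1a* replicate 3 was the highest library at Medtr4g013770, Medtr5g048550 and Medtr4g094492.

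Photosynthesis and respiration loci were higher in the triple mutant. The terms described next were found by the study in comparisons of each mutant with WT, on these same libraries, so their direction here is not independent evidence. Their members were chosen as changed, so high shares called are no sign of enrichment over the 3.72% of all loci called higher and 8.8% called lower. Of 24 loci under photosynthesis, 22 rose and none fell (median log2 fold change 3.39), all 12 under cellular respiration rose (median 3.86), as did all 7 under ATP synthesis coupled proton transport (median 3.21). The photosynthesis loci summed to 561, 515 and 378 CPM in *Mtsoc1a*, 2227, 1202 and 1250.0 in the triple mutant, with 447, 316 and 529 in WT. Triple mutant replicate 1 was the highest of its group at 23 of the 24. Medtr3g035600 rose from 5.48, 7.78 and 6.16 CPM to 299.9, 117 and 156 (log2 fold change 4.88, SE 0.49, adjusted p = 6.03e-04), and Medtr3g008370 and Medtr7g016660 from 2.61, 3.60 and 2.61 and 3.37, 4.62 and 4.09 CPM to 23.1, 11.4 and 15.5 and 28.1, 16.0 and 15.2. In mean level, WT leaves exceeded WT apices at 23 of the 24 loci and exceeded the triple mutant apex at 6. The median locus was at 0.873 CPM of the library total in *Mtsoc1a* apices, 14.5 in triple mutant apices and 4.11 in WT leaves. For cellular respiration the medians were 0.356, 4.54 and 1.07, and WT leaves exceeded the triple mutant at 1 of 12 loci. By count of loci, the triple mutant apex was thus above leaves at most members of these terms. The members were listed because they were high in these same triple mutant libraries, which favours that count, so nothing is concluded from it about leaf-like expression. The most abundant photosynthesis locus was an exception: Medtr6g011870 was at 434 CPM of the library total in *Mtsoc1a* apices, 365 in WT apices, 794 in triple mutant apices and 2645 in WT leaves. It made up most of the summed levels in *Mtsoc1a* and WT.

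Many of these loci lie next to each other. Locus numbers follow the order along a chromosome, and among 22021 tested loci with such numbers, 20.7% of the higher loci had a neighbour called higher, against 6.32% of the other loci. The longest stretches of consecutive tested loci that were all higher were 13 loci from Medtr4g050950 to Medtr4g051290 (median log2 fold change 3.21), 9 from Medtr7g021690 to Medtr7g021790 (median 3.65), 8 from Medtr3g035650 to Medtr3g035720 (median 3.78), 7 from Medtr4g051370 to Medtr4g051435 (median 4.44) and 6 from Medtr4g034690 to Medtr4g034810 (median 3.51). These 5 stretches, chosen after their values were seen and given with no test, hold 43 loci. They include 9 of the 24 photosynthesis loci and 9 of the 12 cellular respiration loci, whose median log2 fold change was 4.18 and 3.54 inside the stretches. The 15 photosynthesis loci outside them had a median of 2.50, with 13 called. The 3 respiration loci outside them were all called. Of these, Medtr4g451275 and Medtr6g032895 were at 0 in *Mtsoc1a*, so no median fold is given for them. The 43 loci summed to 56.6, 71.9 and 51.2 CPM in *Mtsoc1a*, 1087, 484 and 607 in the triple mutant, with 58.7, 59.2 and 114 in WT. Triple mutant replicate 1 was the highest of its group at 40 of the 43, against 326 of the 838 higher loci (38.9%). The part of this library's preparation in that was not tested.

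The terms share members: Medtr2g062930, Medtr4g034790 and Medtr7g021720 are under both photosynthesis and cellular respiration. Of the 11 loci under protein-chromophore linkage, all but Medtr8g070530 are also photosynthesis loci, so that term largely repeats the result above. In this term, which attaches light-absorbing pigments, 10 of 11 rose (median log2 fold change 2.50), with WT leaves above the triple mutant apex at 6 of the 11. Of 6 loci under phenylpropanoid biosynthesis 4 rose (median 1.58). In the latter, Medtr3g069030 went from 14.0 ± 2.87 CPM to 47.8 ± 4.73 (SD, n = 3) (log2 fold change 1.77, SE 0.17, adjusted p = 3.02e-05) and Medtr8g068190 from 0.381, 1.01 and 0.220 to 6.88, 10.3 and 8.05 (log2 fold change 3.96, SE 0.46, adjusted p = 9.19e-05).

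Nutrient transport, abscisic acid, flavonoid and cell wall loci were lower in the triple mutant. Their members had been listed as lower in these triple mutant libraries than in WT, so shares far above the 8.8% of all loci were favoured by that choice. All 4 loci under nitrate assimilation fell (median log2 fold change -4.52), and they summed to 328, 362 and 491 CPM in *Mtsoc1a* and 40.7, 17.3 and 15.3 in the triple mutant. Medtr5g059820 carried most of this sum, at 304, 337 and 449.5 CPM against 38.7, 16.1 and 14.6 (log2 fold change -3.97, SE 0.41, adjusted p = 6.36e-04). WT was near *Mtsoc1a*, at 331, 276 and 254. All 16 loci under inorganic anion transport fell (median -3.44), as did 13 of 15 under amino acid transport (median -2.12) and 18 of 23 under metal ion transport (median -1.80). Under abscisic acid signalling, the pathway of the drought and dormancy hormone, 11 of 12 fell (median -3.70), and all 6 under abscisic acid metabolism did (median -2.45). The latter count was 3 without triple mutant replicate 2. Medtr4g014460 of the first term fell from 19.6, 27.9 and 22.1 CPM to 2.16, 1.02 and 0.872 (log2 fold change -4.09, SE 0.27, adjusted p = 3.36e-06), and Medtr8g072260 from 17.3, 17.2 and 19.2 to 0.742, 0.392 and 0.872 (log2 fold change -4.71, SE 0.39, adjusted p = 2.36e-05).

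All 9 loci under flavonoid biosynthesis, the pathway of anthocyanins and isoflavonoid precursors, fell (median log2 fold change -4.79), although the count was 5 without triple mutant replicate 2 and 4 without replicate 3. Medtr7g016780 held 62, 89 and 120 counts in *Mtsoc1a* against 1, 1 and 0 in the triple mutant, a ratio of 59.0 with a 95% exact counting interval of 16.2 to 489, and Medtr7g016700 had 146, 122 and 123 and 2, 0 and 4. These 2 loci belong to a stretch of 5 neighbours, Medtr7g016700 to Medtr7g016820, that all fell and held 2626 counts in *Mtsoc1a* and 30 in the triple mutant. Of 13 loci under xyloglucan metabolism, which remodels the growing cell wall, 12 fell (median -2.32), as did 14 of 16 under cell wall biogenesis (median -2.15). Oxidative stress and peroxide terms overlap in their members: 19 of 22 and 15 of 17 fell (medians -2.21 and -2.50). All 6 loci under chitin catabolism fell (median -3.37).

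A further set of terms had been listed as higher in *Mtsoc1a* than in WT, and their loci had a lower level in the triple mutant. Listing by a high *Mtsoc1a* level likewise favours a share above the 8.8% of all loci called lower. All 4 under abscisic acid signalling fell (median log2 fold change -5.63), all 15 under carbohydrate metabolism (median -4.03), 10 of 12 under defense response (median -4.22), and all 5 under hydrogen peroxide catabolism (median -2.82), the last count being 3 without any 1 of the triple mutant libraries. The peroxide loci summed to 14.0, 19.9 and 41.4 CPM in *Mtsoc1a*, but to 4.86, 5.41 and 3.96 in the triple mutant, with 4.26, 6.90 and 4.42 in WT. The triple mutant thus overlapped WT there. That *Mtsoc1a* lay above WT was fixed by how these loci were listed. The defense loci summed to 234, 344 and 462 CPM in *Mtsoc1a*, 33.2, 25.0 and 22.4 in the triple mutant, with 72.6, 129 and 94.9 in WT, so the triple mutant was below WT as well. Medtr5g010635 held 823, 2574 and 2607 counts in *Mtsoc1a* apices, 0, 3 and 1 in the triple mutant, with 157, 186 and 237 in WT (log2 fold change -9.30, SE 0.95, adjusted p = 6.16e-04). Medtr2g035320 fell from 139, 144 and 140.2 CPM in *Mtsoc1a* to 7.15, 2.98 and 3.15 (log2 fold change -4.98, SE 0.37, adjusted p = 1.08e-04), with WT at 44.2, 82.7 and 61.3. Near it, 6 consecutive tested loci from Medtr2g035100 to Medtr2g035220 all fell, with 9022 counts summed over *Mtsoc1a*, 375 over the triple mutant and 2345 over WT.

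**Figure D5:**
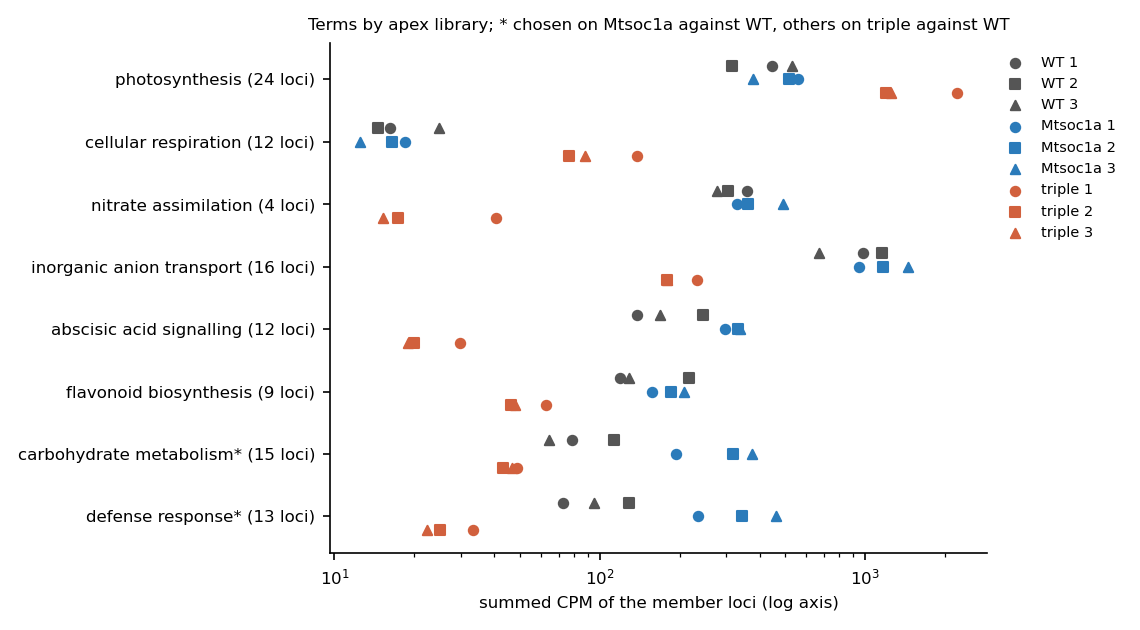
Summed CPM (log axis) of the member loci of 8 terms in each apex library; the colour gives the group and the symbol the replicate. Photosynthesis and cellular respiration lie to the right in the triple mutant (orange), with replicate 1 (circle) the highest, and the other 6 terms lie to the left of both *Mtsoc1a* (blue) and WT (grey).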

How the data were processed

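Shoot apex RNA was sequenced from 3 libraries each of WT, *Mtsoc1a* and the triple mutant. The authors trimmed reads with fastp, quantified transcripts with Salmon (version 0.8.2) against the Mt4.0v2 transcriptome, and deposited estimated counts per transcript, of which 98.9% are whole numbers. DESeq2 (version 1.24.0) is also in the submitters' processing notes. Columns with the study's own fold changes and p-values were not used, nor were its TPM values.

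Estimated counts of 57124 transcripts were rounded and summed to 50021 loci. The 9 apex libraries were fitted together with edgeR 4.0.16 in R 4.3.3 (TMM, filterByExpr with a minimum count of 10, robust glmQLFit and glmQLFTest), and the contrast was triple mutant minus *Mtsoc1a*, with Benjamini-Hochberg adjustment over 22555 loci. The 22555 loci were called at an adjusted p of 0.05 or less and at least 2-fold. The standard error is the log2 fold change divided by the square root of F. Library totals were 30574854 to 33419788 in *Mtsoc1a* and 13224488 to 15891830 in the triple mutant. Intervals (95%) cover counting error only. Floors of 3 counts cover it only in the group without counts. A fold given as at least a value takes the counts of the other group as observed. The labels call the replicates biological.

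The loci named were the *MtSOC1* genes, the RT-qPCR genes, called candidate flowering genes, the 12 called loci of smallest p in each direction with non-overlapping libraries and a mean of at least 1 CPM in the higher group, the 8 of largest fold in each direction with at least 20 counts in every library of the higher group, and up to 4 members of smallest p per list. The members and lists were chosen with earlier results of these data known. No list was built on product names, because 0 loci matched the reference table used here. The tissue was therefore checked with loci chosen from WT libraries alone (500 per direction) and with *HDL*, and not with cell type markers. Terms of which only part of the loci was at hand were left out. On data simulated for this comparison (22555 loci), the test called 96 of 100 loci changed 4-fold and 35 of 100 changed 2-fold, with 4 false calls. Alternatives were DESeq2 1.42.0, other scaling, filters, fold threshold, transcripts, samples, depth, a replicate block and each library left out.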

Additional observations from a re-analysis of the deposited data

How the results depend on the processing

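Against 838 loci higher and 1985 lower, the counts were 822 and 1990 with DESeq2 size factors, 913 and 2189 with DESeq2's own test, 830 and 1955 without the filter on low counts, 789 and 1755 over transcripts, 789 and 1920 with the 6 libraries compared alone, and 747 and 1801 with libraries thinned to the smallest. Without a fold threshold they were 3442 and 3611. Scaling by library totals moved the median of all loci to -0.12 and gave 684 higher and 2260 lower, so that 23.2% of calls were higher in place of 29.7%. Leaving out a library gave 643 to 864 higher and 1468 to 2196 lower. Same-numbered libraries did not deviate together (correlations of -0.126, 0.0253 and -0.0369), so the numbers do not pair them. A replicate block gave 779 and 1749 calls, of which 759 and 1721 were among the calls without it, and ended the calls of *MtTFL1c*, Medtr4g094492 and Medtr5g031430. Among the named loci fitted (145 to 152 by setting), no called locus changed direction in any refit, whereas the uncalled *MtFDa* (-0.57 to 0.33) and *MtFTb2* (-0.15 to 1.67) changed sign. *MtAP1b*, *MtAP1* and *MtBFT* passed the filter in only 12 of 14 alternatives. *MtFULc*, *MtFTb1*, *MtFTb2*, *AGL6* and Medtr5g083860 passed it in 13. Of 152, 5 to 10 lost their call without a given library. With a prior count of 0.5, WT was nearer to *Mtsoc1a* at 664 higher and 1744 lower loci. The triple mutant libraries were the shallowest, so 0 counts there set a higher limit than in *Mtsoc1a*. Simulated 2-fold changes were mostly missed (35 of 100 found), but they lay at the fold threshold and few loci were changed in that simulation. That share is therefore not the power in these data, and loci of low level were not covered. The number of loci that changed by little was not measured.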

Other observations

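Transcripts of the same locus moved in opposite directions at 8 of 2747 loci with at least 2 transcripts tested, and 3 of these loci were called as a sum. They were chosen after their values were seen. At Medtr6g047580, transcript Medtr6g047580.1 was at 141, 152 and 122 CPM in *Mtsoc1a* and 30.2, 39.5 and 26.0 in the triple mutant (log2 fold change -2.12, edgeR adjusted p = 3.49e-04), while Medtr6g047580.2 was at 21.6, 17.0 and 28.4 and at 64.8, 72.5 and 70.0 (log2 fold change 1.63, adjusted p = 0.00625). The sum of the locus changed by -0.68, and WT was at 131, 128 and 165 CPM for the first transcript and 32.7, 20.4 and 44.5 for the second. WT therefore lay with *Mtsoc1a*. Medtr5g026610.2 was listed at 0 in all *Mtsoc1a* and WT apex libraries and at 27.7, 19.6 and 29.8 CPM in the triple mutant, while the sum of Medtr5g026610 did not pass the test (adjusted p = 0.0816). Salmon divides reads among transcripts that share sequence, so these splits are estimates, and any part of library preparation in them was not tested.

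Stretches of adjacent loci were also found among the lower loci. Of lower loci with an ordered number, 30.5% had a neighbour called lower, against 15.2% of the other loci, and 19 stretches of at least 4 consecutive tested loci held 86 loci. The 5 loci from Medtr6g034880 to Medtr6g034930 held 18360 counts in *Mtsoc1a*, 1691 in WT and 482 in the triple mutant, so *Mtsoc1a* was far above both other groups there. The 6 loci from Medtr8g465340 to Medtr8g465580 held 2529, 1361 and 212 counts.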
